A study of Mus musculus with 35 samples.

Results

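The data describe 10 claudin genes, Cldn1, Cldn2, Cldn3, Cldn4, Cldn5, Cldn7, Cldn8, Cldn10, Cldn15 and Cldn23, in 6 mouse tissues. They were taken by gene symbol from the claudin family and joined to the counted loci through the deposited map between ENSEMBL genes and long-read (Iso-seq) loci. They are 10 of the 55356 genes in the count table. 9 of them were counted at an Iso-seq locus and Cldn8 under its ENSEMBL gene, and all 10 passed the filter on low counts. Cldn8 and Cldn23 passed it only through the colon libraries, since 1 library outside colon reached the minimum for each, so their differences between colon and other tissues are a description and not a test. The study sequenced RNA of adult C57BL/6J mice, freed of ribosomal RNA and prepared as strand-specific libraries, to measure expression across tissues of both sexes. The groups were brain, cerebellum, heart, colon and gonad, each from females and from males, so that the female gonad is the ovary and the male gonad the testis. Every group held 3 libraries except the male heart, which held 2, giving 29 libraries in all. No group carried an altered allele or a treatment. The labels do not say which libraries came from separate animals, and p-values therefore measure the spread between these libraries, which may be partly technical.

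Claudins are small membrane proteins that span the membrane of epithelial and endothelial cells and join with claudins of the neighbouring cell into the strands of the tight junction. Some of them seal the space between cells, as claudin 1, claudin 3, claudin 4 and claudin 5 are known to do, whereas claudin 2, claudin 10 and claudin 15 form channels through which ions or water pass. Which claudins a tissue makes therefore sets how leaky its cell layers are: the colon lining combines sealing claudins with a few channel formers, and the vessels of the brain depend on claudin 5. In a bulk tissue a lower level can come from fewer cells of the expressing type or from less RNA in each cell, and these cannot be told apart here.

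The family shares a signature in the first loop outside the cell, and a stretch of coding sequence that holds it was found once in each of the 10 genes, in the longest coding transcript of GENCODE M21 (build GRCm38.p6). It is shown because it marks the 10 genes as claudins and shows how far their sequences differ where reads have to tell them apart. Each stretch is 48 bases long and lies within 1 coding exon. The capitals mark the codons for glycine or asparagine, leucine and tryptophan at the start and the codons of both cysteines.
Cldn1 (chr16:26371435-26371482, minus strand): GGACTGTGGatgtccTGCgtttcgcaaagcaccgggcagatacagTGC
Cldn2 (chrX:139808852-139808899, plus strand): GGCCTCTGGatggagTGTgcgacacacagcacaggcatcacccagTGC
Cldn3 (chr5:134986586-134986633, plus strand): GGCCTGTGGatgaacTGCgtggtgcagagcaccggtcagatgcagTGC
Cldn4 (chr5:134946554-134946601, minus strand): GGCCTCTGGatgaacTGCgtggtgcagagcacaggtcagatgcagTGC
Cldn5 (chr16:18777140-18777187, plus strand): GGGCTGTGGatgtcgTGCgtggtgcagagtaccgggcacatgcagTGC
Cldn7 (chr11:69966071-69966118, plus strand): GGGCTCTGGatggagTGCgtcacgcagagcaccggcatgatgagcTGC
Cldn8 (chr16:88562844-88562891, minus strand): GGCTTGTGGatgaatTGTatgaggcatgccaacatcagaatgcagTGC
Cldn10 (chr14:118855131-118855178, plus strand): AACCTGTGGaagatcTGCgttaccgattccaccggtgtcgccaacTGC
Cldn15 (chr5:136968245-136968292, plus strand): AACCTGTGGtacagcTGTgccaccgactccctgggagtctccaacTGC
Cldn23 (chr8:35826144-35826191, minus strand): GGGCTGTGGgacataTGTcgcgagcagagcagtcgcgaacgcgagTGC
The stretches of Cldn3 and Cldn4 are much alike, and these genes also hold the longest identical run of coding bases among the 45 pairs of the 10 genes, with 35 bases. The median over the pairs was 11 bases and the shortest longest run was 9 bases. The run shared by Cldn3 and Cldn4 was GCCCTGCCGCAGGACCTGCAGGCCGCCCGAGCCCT, which begins at coding base 211 of Cldn3 and at coding base 214 of Cldn4. Only reads with 1 place of alignment were counted, so reads that fell wholly within that run could have been lost from both genes. No counted locus of the 10 joined a second gene. The only overlap on exons was that of Cldn3 with the antisense gene Wbscr25, over 40 bases.

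Promoter sequence of RefSeq (GRCm38.p6) was matched for 8 of the 10 genes, all but Cldn8 and Cldn23. The 250 bases before the start site are shown for Cldn3 and Cldn4, which lie 39312 bases apart on opposite strands of chromosome 5 and were both highest in colon, and for Cldn2, which had the highest mean in colon but reached a similar level in cerebellum. Capitals mark matches, on either strand, to 6 motifs searched: the TATA box, the GC box, the CCAAT box, the E-box of SNAI and ZEB factors, the site of CDX factors and part of the site of HNF4, spelled CAAAGT. The CCAAT box and the HNF4 letters had no match in these 3 windows, and stood in 33.8% and 12.6% of all promoters.
Cldn2 (chrX:139800558-139800807, plus strand): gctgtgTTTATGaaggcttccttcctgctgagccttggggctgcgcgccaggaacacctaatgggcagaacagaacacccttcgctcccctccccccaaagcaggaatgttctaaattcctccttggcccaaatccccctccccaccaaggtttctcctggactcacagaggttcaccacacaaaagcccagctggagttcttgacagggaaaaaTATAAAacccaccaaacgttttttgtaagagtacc
Cldn3 (chr5:134985964-134986213, plus strand): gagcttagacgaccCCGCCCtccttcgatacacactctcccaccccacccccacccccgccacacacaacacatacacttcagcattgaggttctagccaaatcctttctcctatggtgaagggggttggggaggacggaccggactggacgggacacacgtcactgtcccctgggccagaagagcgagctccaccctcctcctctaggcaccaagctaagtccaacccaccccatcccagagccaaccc
Cldn4 (chr5:134946935-134947184, minus strand): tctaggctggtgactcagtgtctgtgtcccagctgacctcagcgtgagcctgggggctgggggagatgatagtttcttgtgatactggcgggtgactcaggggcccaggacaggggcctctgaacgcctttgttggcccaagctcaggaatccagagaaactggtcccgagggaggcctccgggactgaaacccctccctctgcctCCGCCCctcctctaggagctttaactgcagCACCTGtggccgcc
Cldn2 held a TATA box, TATAAA, from base -35 to base -30, counted from the start site. The same motif stood in 12.4% of the 32851 promoters of this length. Cldn2 also held CATAAA, the site of the intestinal CDX factors, on the other strand from base -244 to base -239, as did 10.8% of promoters. Cldn4 held CAGGTG, the E-box bound by SNAI and ZEB factors, on the other strand from base -14 to base -9. That motif was found in 17.2% of promoters. Cldn3 and Cldn4 each held GGGCGG (a GC box), also on the other strand, which stood in 32.7% of promoters. These matches are a description of the letters only.

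The libraries matched their labelled tissues by marker genes, with 1 that stood apart. Totals ran from 11742417 to 36194255 counted reads with a median of 24403774, and the colon was the shallowest tissue, with 11742417 to 18890658, a range that 1 ovary library (18035978) overlapped. The summed level of 11 epithelial markers was 3342 to 5784 FPKM (counted reads scaled to exon length and to the total of the library) in colon and at most 478 FPKM elsewhere. These markers include genes of the gut lining such as Krt20, Muc2 and Slc26a3, so the sum favours colon over other epithelia. Sums of 5 cardiomyocyte markers, of 5 markers of cerebellar neurons, of 7 male germ cell markers and of 5 granulosa cell markers were likewise highest in heart, cerebellum, testis and ovary, with no overlap with the other tissues. Female heart replicate 3 stood apart from the other hearts. Its sum over 6 lung epithelial markers, a list chosen after its values were seen, was 40.8 FPKM against at most 0.370 FPKM in the other hearts, with 715 counts of Sftpc where they had 0 to 3. Its sum of cardiomyocyte markers was 16730 FPKM, against 34040 to 43597 FPKM. The heart values that it moved most are therefore given with and without it.

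Of the 10 claudins 7 had their highest tissue mean in colon, Cldn1 and Cldn5 had it in ovary and Cldn10 in brain. For 2 of the 7 this rested on female colon replicate 1: without it the colon mean was 4.04 FPKM for Cldn2, where cerebellum had 4.39 FPKM, and 19.7 FPKM for Cldn15, where ovary had 20.1 FPKM. The summed level of the 10 genes was 540 ± 124 FPKM (SD, n = 6) in colon, 67.0 ± 11.7 (n = 3) in ovary, 49.3 ± 7.23 (n = 6) in brain, 45.9 ± 5.64 (n = 6) in cerebellum, 29.9 ± 0.987 (n = 3) in testis and 21.1 ± 11.3 (n = 5) in heart, or 16.2 ± 2.48 (n = 4) in heart without female replicate 3. The colon sum thus lay above every other tissue without overlap of libraries. The leading gene within this sum was Cldn10 in both brain tissues and another gene in each of colon, testis and heart. Cldn7 made up 55.0% of the sum in colon, Cldn10 made up 85.9% in brain and 71.4% in cerebellum, and Cldn3 made up 79.1% in testis. Cldn15 led in heart with 57.6%, or 55.0% without female heart replicate 3, and in ovary Cldn5 (33.6%) and Cldn15 (29.5%) were close to each other, and in ovary replicate 1 Cldn15 (34.7%) was ahead of Cldn5 (23.1%). All 10 genes differed among the 6 tissues (edgeR's quasi-likelihood F test, largest Benjamini-Hochberg adjusted p 1.7e-06), but so did 95.5% of the 29911 genes tested, and Cldn8 and Cldn23 entered the test only through colon. Between neighbouring tissues in each gene's order of FPKM means, 20 of 50 pairs were called at an adjusted p below 0.05. With the TMM scaling of the test the order turned in 4 of the 50 pairs, and 1 of the 20 calls, that of Cldn5 between cerebellum and heart, went against the order of the FPKM means. The single calls of Cldn8 and of Cldn23 were their steps down from colon. Of all genes tested, brain against cerebellum called 26.1%, brain against heart 58.8%, brain against colon 68.3% and brain against ovary 56.8%. Cerebellum against heart called 57.4%, against colon 66.1%, against ovary 53.5% and against testis 71%. Heart against colon called 53.9%, heart against ovary 44%, heart against testis 67.5%, colon against ovary 48%, colon against testis 71.9% and ovary against testis 64.3%. Neighbours are by construction close in level.

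**Figure D1:**
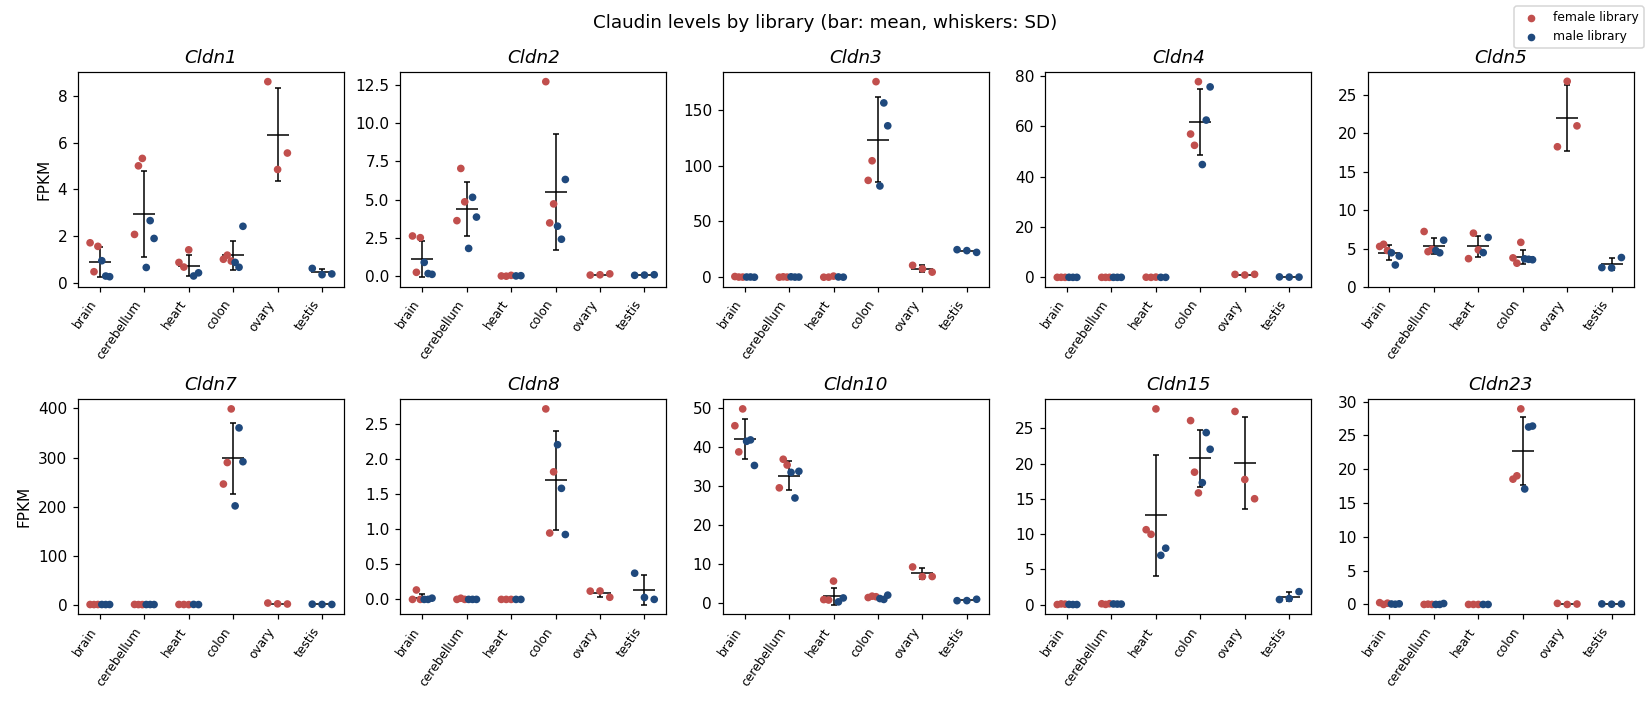
Level of each of the 10 claudins in FPKM (linear vertical axes, 1 panel per gene with its own scale) in the 29 libraries, by tissue. Points are libraries, coloured by sex, the bar is the mean and the whiskers are the SD. Cldn3, Cldn4, Cldn7, Cldn8 and Cldn23 stand high in colon, Cldn10 in brain and cerebellum, Cldn5 in ovary, and Cldn15 in heart, colon and ovary.

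**Figure D2:**
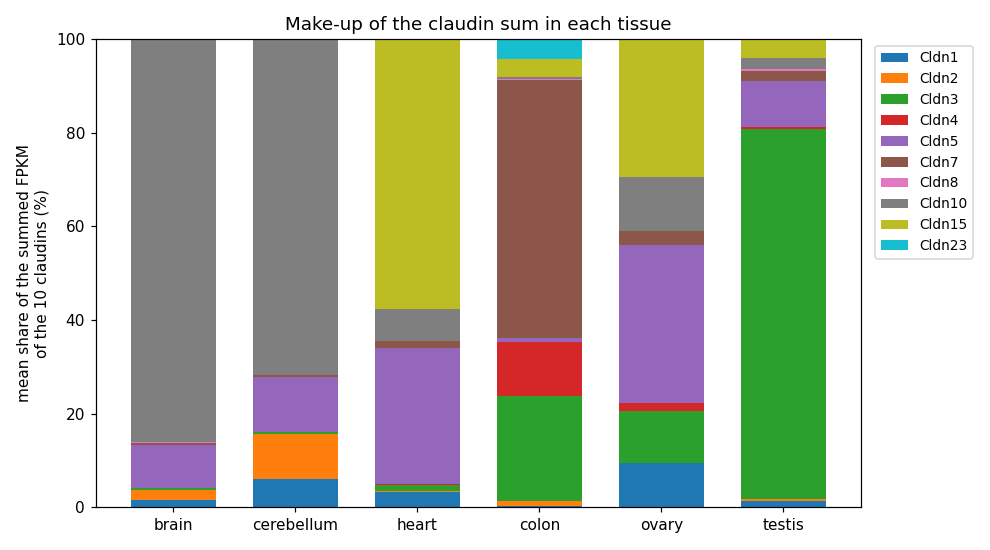
Mean share of the summed FPKM of the 10 claudins that each gene made up, in percent, for each of the 6 tissues (stacked bars). Cldn7 is the largest part in colon (55.0%), Cldn10 in brain (85.9%) and Cldn3 in testis (79.1%).

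The comparison of colon with brain, cerebellum and heart asked which claudins set the colon apart from tissues of the brain and of the heart. Of the 10 claudins 9 were called, 7 higher and 2 lower in colon, where 62.1% of all genes tested were called, 30.6% higher and 31.6% lower. The number called was again 9 without female heart replicate 3. Leaving out Cldn8 and Cldn23, which passed the filter only through colon, 7 of 8 were called, 5 higher and 2 lower, and the median log2 difference as fitted was 4.69. The median log2 difference of the 10 was 7.08 as fitted, or 6.29 when groups without any read were set to 3 counts over the group, and over all genes tested it was -0.13. Scaling by DESeq2 size factors instead of TMM shifted the log2 differences by 0.19 in this comparison, by -0.18 in ovary against testis and by 0.11 in heart against brain and cerebellum.

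The sealing claudins of the colon epithelium gave the largest values. Cldn7, a claudin of the lateral membrane of colon cells, had 201 FPKM in the lowest, 291 as the median and 399 FPKM in the highest of the 6 colon libraries. It did not exceed 0.459 FPKM in any brain, cerebellum or heart library. No overlap was present, and the log2 difference was 10.13 ± 0.26 (SE, adjusted p 2.86e-21). Cldn3 had 81.8, 120 and 175 FPKM as lowest, median and highest in colon and at most 1.05 FPKM in the other 3 tissues, a log2 difference of 8.67 ± 0.28 (adjusted p 3.39e-19). Its highest value outside the colon in this comparison came from female heart replicate 3, and the other hearts had 0.0667 to 0.290 FPKM. Cldn4 had 44.9, 59.8 and 77.8 FPKM in colon and 8 reads in all over the 17 other libraries of the comparison. No read of Cldn4 was counted in cerebellum among 144113603 reads, which allows up to 0.0116 FPKM, so that the colon mean of 61.7 ± 13.0 FPKM was at least 5345-fold higher. Such limits cover counting error only.

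Cldn23, a claudin of differentiated gut cells, and Cldn8, a sealing claudin of the distal gut and kidney, had at most 12 counts in any brain, cerebellum or heart library. Cldn23 had 17.1, 22.6 and 28.9 FPKM in colon, 0 to 12 counts in a brain or cerebellum library and none in heart. Against heart, the colon mean of 22.7 ± 5.05 FPKM was at least 1505-fold higher. Cldn8 was the weakest of the 10 in colon apart from Cldn1 and Cldn10, with 0.923, 1.70 and 2.71 FPKM or 29 to 98 counts. It had no read in heart, which puts the colon at least 151-fold higher, 10 reads in brain, 9 of them in female brain replicate 2, and 1 read in cerebellum. The adjusted p was 5.94e-20 for Cldn4, and for Cldn8 and Cldn23 none is given because of the filter.

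Within the colon 4 of the claudins were lowest in the library with the lowest epithelial markers, and others were not. Male colon replicate 1 had the lowest Cldn3, Cldn4, Cldn7 and Cldn23 of the 6 libraries, and it also had the lowest sum of the 11 epithelial markers (3342 FPKM, against 4659 to 5784 FPKM) and the highest sum of 6 smooth muscle markers (14966 FPKM, against 5285 to 9831 FPKM). Taken as a percentage of the epithelial sum, Cldn7 ranged from 4.81 to 7.17, Cldn3 from 1.70 to 3.15, Cldn4 from 1.10 to 1.40 and Cldn23 from 0.362 to 0.519. Female colon replicate 3 was the highest for the same 4 genes, with 175 FPKM of Cldn3 and 399 FPKM of Cldn7. Cldn8 was lowest (0.923 FPKM) in male colon replicate 3, the library with the highest epithelial sum, and stood at 2.20 FPKM in male colon replicate 1. Cldn15 was lowest in female colon replicate 3 (15.8 FPKM). The part of tissue make-up in these differences was not tested.

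Of the channel-forming claudins, Cldn2 and Cldn15 were high in colon, but not there alone. Cldn2 had 2.41, 4.10 and 12.7 FPKM as lowest, median and highest in colon, where the highest, female colon replicate 1, was followed by 6.32 FPKM. Its log2 difference from brain, cerebellum and heart was 3.32 ± 0.40 (adjusted p 5.18e-08), although colon and cerebellum did not differ beyond their spread (log2 0.26 ± 0.43, adjusted p 0.642). Cldn15, the main cation channel former of the gut lining, had 15.8, 20.4 and 26.1 FPKM in colon and was at most 0.118 FPKM in brain and cerebellum. Its log2 difference was 6.05 ± 0.23 (adjusted p 6.92e-18). In heart it was 27.8 FPKM in female replicate 3 and 6.99 to 10.6 FPKM in the other 4 libraries, which lay below every colon library.

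Cldn5 and Cldn10 were lower in colon than in the mean of the 3 tissues, and Cldn1 was not called. Cldn5, the sealing claudin of blood vessel endothelium, had 3.11, 3.65 and 5.82 FPKM in colon and overlapped the other tissues, with a log2 difference of -0.60 ± 0.18 (adjusted p 0.00454). By pairs, only heart against colon was called for Cldn5 (log2 1.03 ± 0.22, adjusted p 0.000262). Brain against colon (0.32 ± 0.21, adjusted p 0.184) and cerebellum against colon (0.46 ± 0.21, adjusted p 0.057) were not. Cldn10 had 0.952 to 2.05 FPKM in colon against at least 27.0 FPKM in brain and cerebellum, and its log2 difference was -3.27 ± 0.27 (adjusted p 5.93e-11). Heart and colon alone were not called for Cldn10 (log2 0.40 ± 0.34 for heart against colon, adjusted p 0.351), and without female heart replicate 3 the heart mean of 0.839 FPKM lay below the colon mean of 1.51 FPKM (log2 -0.11 ± 0.27, adjusted p 0.828). Cldn1, a sealing claudin best known from the skin barrier, had 0.658 to 2.41 FPKM in colon, and its log2 difference was -0.11 ± 0.32 (adjusted p 0.924), a value that turned above 0 under the scaling by DESeq2 size factors (0.0863).

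**Figure D3:**
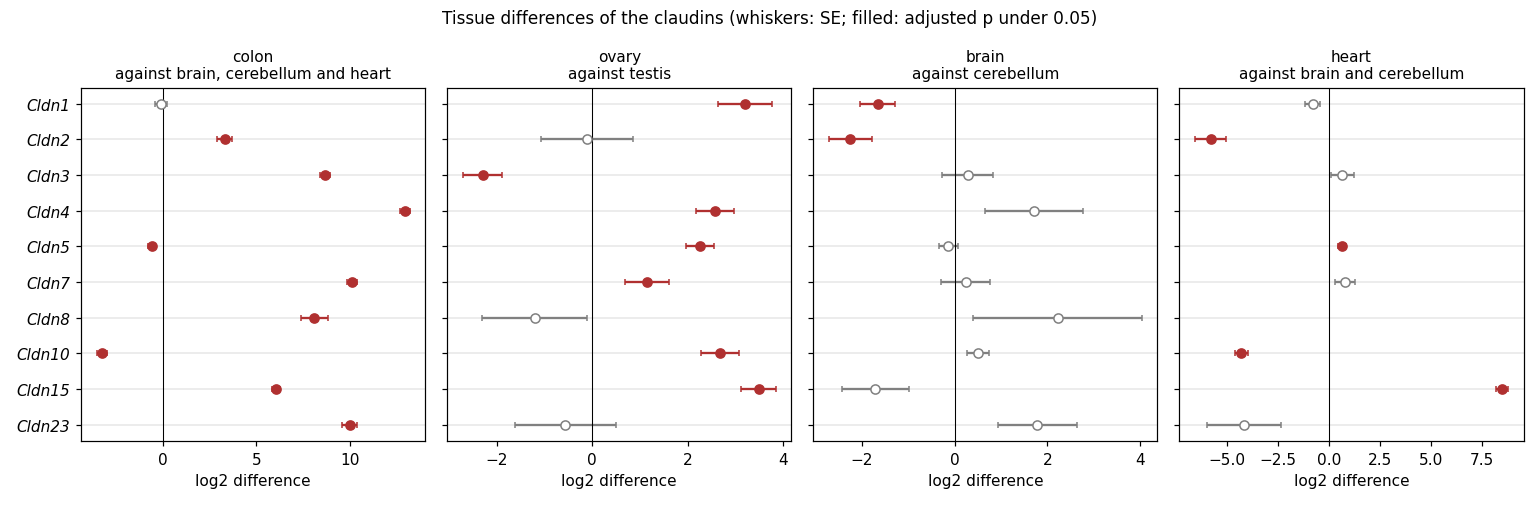
log2 difference of each claudin in the 4 tissue comparisons (horizontal axes), with the SE as whiskers. Filled points had an adjusted p below 0.05. Points with an SE above 3, which arose where compared groups held almost no reads (Cldn4 and Cldn8 in the heart comparison), are not drawn, and values of Cldn4, Cldn8 and Cldn23 against groups without reads depend on the prior count of the fit. The colon panel holds 7 filled points above 0, among them Cldn8 and Cldn23, which passed the filter on low counts only through colon, and the brain panel only Cldn1 and Cldn2, both below 0.

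Brain was set against cerebellum to compare 2 parts of the same organ. Of the 10 claudins 2 were called, both lower in brain, where 26.1% of the genes tested were called, 15.3% higher and 10.8% lower. Cldn15 (log2 -1.72, adjusted p 0.0845) and Cldn23 (1.78, adjusted p 0.135) were not called but gained a call in 2 of 33 alternatives each, with a lowest adjusted p of 0.0356 and 0.0210. Over the alternatives the difference ran from -2.57 to -1.44 for Cldn15 and from 1.46 to 3.80 for Cldn23, the last without male cerebellum replicate 3, which held 6 of the 8 reads of Cldn23 in cerebellum. The median log2 difference of the 10 was 0.26 as fitted, 0.05 with groups at 0 set to 3 counts, and 0 over all genes tested. Cldn2 had 0.120, 0.577 and 2.63 FPKM as lowest, median and highest in brain and 1.81, 4.36 and 7.04 FPKM in cerebellum, a log2 difference of -2.25 ± 0.47 (adjusted p 0.000581). The groups overlapped, since female brain replicates 1 and 3 were above the lowest cerebellum library. Cldn1 had 0.253, 0.703 and 1.71 FPKM in brain and 0.649, 2.36 and 5.32 FPKM in cerebellum, a log2 difference of -1.66 ± 0.38 (adjusted p 0.0016), again with overlap.

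Both genes were lowest in libraries with low markers of the choroid plexus, the secretory epithelium of the brain ventricles in which Cldn1 and Cldn2 are known to be made. The sum of 8 choroid plexus markers was 25.5, 254 and 1588 FPKM as lowest, median and highest in brain and 1046, 3184 and 3961 FPKM in cerebellum. In cerebellum all 8 markers had a mean of at least 1 FPKM and in brain 7 of 8. The transthyretin gene Ttr, the most abundant of them, had a mean of 504 FPKM in brain and 2886 FPKM in cerebellum. The 3 brain libraries with the lowest sums, female replicate 2 and male replicates 2 and 3 with 25.5 to 47.9 FPKM, were also the 3 lowest of all 12 for Cldn2 (0.120 to 0.252 FPKM) and for Cldn1 (0.253 to 0.467 FPKM). In cerebellum, male replicate 1 had the lowest sum (1046 FPKM) and the lowest Cldn2 and Cldn1. Cldn2 was 0.119 to 0.178% of the marker sum in the 6 cerebellum libraries and 0.158 to 0.989% in the 6 brain libraries. The part of the choroid plexus in the difference between brain and cerebellum was not tested.

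**Figure D4:**
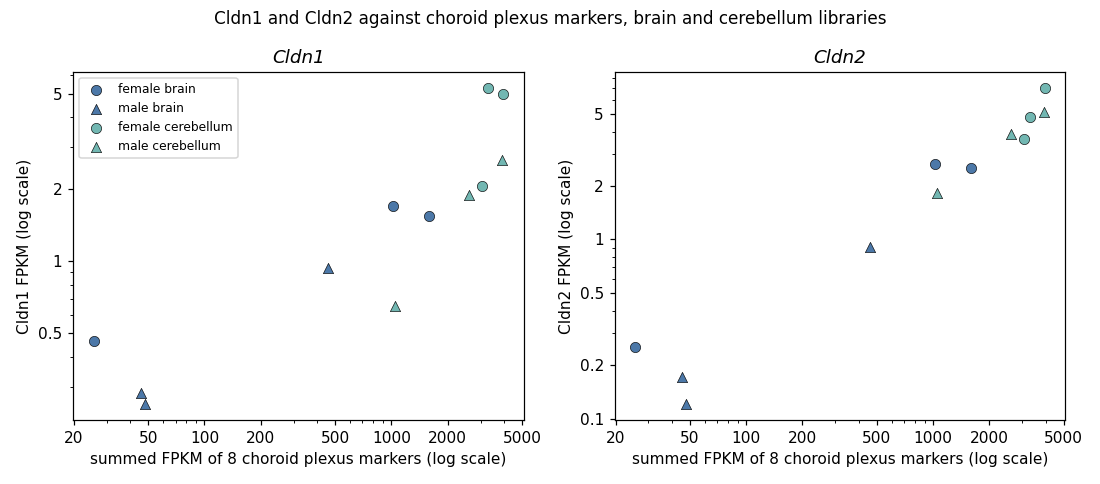
Cldn1 (left) and Cldn2 (right) in FPKM against the summed FPKM of 8 choroid plexus markers in the 6 brain and 6 cerebellum libraries, on log axes, with symbols by tissue and sex. The 3 brain libraries with sums of 25.5 to 47.9 FPKM sit at the lower left, and the cerebellum libraries other than male replicate 1 at the upper right.

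Among the 10 claudins Cldn10 led in both brain tissues, although Cldn11, outside the 10, had a higher mean in both. Cldn10 is known from kidney tubules, where it forms ion channels between cells, and from astrocytes in the brain. It had 35.3, 41.7 and 49.8 FPKM as lowest, median and highest in brain and 27.0, 33.7 and 36.9 FPKM in cerebellum, which overlapped. The log2 difference was 0.50 ± 0.24 and was not called (adjusted p 0.131). In the fit limited to the groups compared, and without female heart replicate 3, which takes no part in the comparison but in the shared estimate of spread, it was called, with a log2 difference of 0.42 and 0.50 and an adjusted p of 0.00185 and 0.0224. Both brain tissues lay above the ovary, the next in order (9.28, 6.81 and 6.82 FPKM), by a log2 difference of 2.41 ± 0.33 for cerebellum (adjusted p 8.39e-07). Heart, colon and testis followed, with means of 1.80 ± 2.18 FPKM (n = 5), 1.51 ± 0.405 (n = 6) and 0.756 ± 0.205 (n = 3), and the heart mean was 0.839 ± 0.413 FPKM (n = 4) without female heart replicate 3.

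The start of the Cldn10 transcript bears on what was counted. GENCODE gives Cldn10 3 transcripts from 2 first exons. The counted locus (chr14:118854946-118874525, plus strand, 5 exons, 950 bases) begins within the first exon of Cldn10-203. The first exon that Cldn10-201 shares with the other transcript (ending at base 118788370) lies outside it with 0 bases inside, so reads that fell wholly within that exon entered no Cldn10 value. The first 30 coding bases, with the start codon in capitals, show that these transcripts begin with different protein sequence.
Cldn10-201: ATGtccagggcacagatctcagctctggtg
Cldn10-203: ATGgctagcacggccttggaaatcgtcgcc
The locus covered 36.7% of the exon bases that GENCODE gives Cldn10, the smallest share among the 10, and Cldn7 (62.8%) and Cldn1 (66.8%) followed.

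The heart was compared with brain and cerebellum as a muscular organ against neural tissue. Of the 10 claudins 4 were called, 2 higher and 2 lower, where 60.1% of genes tested were called, 24.9% higher and 35.2% lower. The median log2 difference of the 10 was -0.08 as fitted, 0.65 with groups at 0 set to 3 counts, and -0.28 over all genes tested. Without female heart replicate 3, 5 were called, Cldn7 being added (log2 1.14, adjusted p 0.0428), and without male heart replicate 2 Cldn5 was no longer called (adjusted p 0.0748), which left 3.

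Among the 10 claudins, Cldn15 had the highest level in heart. The 5 libraries had 10.6, 9.97 and 27.8 FPKM in females and 6.99 and 8.00 FPKM in males, all above every brain and cerebellum library. The highest was female heart replicate 3. The log2 difference was 8.47 ± 0.29 (adjusted p 1.34e-18), and it was 8.35 (adjusted p 8.43e-19) without that library. Differences among heart, colon and ovary were not called: the ovary had 27.4, 17.8 and 15.0 FPKM, and the neighbouring steps were a log2 of 0.36 ± 0.28 from ovary to colon (adjusted p 0.309) and of 0.04 ± 0.29 from heart to ovary (adjusted p 1). Without female heart replicate 3 the hearts had 8.90 ± 1.69 FPKM (n = 4), below every colon and ovary library on this scale. With TMM scaling, the log2 difference of heart against colon was then -0.53 ± 0.24 (adjusted p 0.0609) and that of heart against ovary -0.17 ± 0.28 (adjusted p 0.698). Testis, with 0.708, 0.858 and 1.83 FPKM, was lower than heart by a log2 of 3.44 ± 0.35 (adjusted p 2.55e-09) and above cerebellum by 4.18 ± 0.40 (adjusted p 9.9e-10).

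In heart and ovary the library highest in Cldn15 was also the highest in markers of the mesothelium, the cell layer that covers these organs. In heart this was female replicate 3, the library with the lung transcripts, which also had the highest sum of epithelial markers (101 FPKM, against 24.7 to 34.0 FPKM). The sum of 5 mesothelial markers was 79.8, 90.5 and 180 FPKM in the female hearts, 59.9 and 66.9 FPKM in the male hearts and 229, 143 and 118 FPKM in the ovaries, and all 5 markers reached a mean of 1 FPKM in both tissues. Cldn15 was 11.0 to 15.4% of that sum in heart and 12.0 to 12.8% in ovary. In testis it was 5.62 to 8.04% of a sum of 11.3 to 22.7 FPKM. In colon it was 54.7 to 239% of a mesothelial sum of 10.2 to 40.3 FPKM, and in brain and cerebellum that sum was at most 4.85 FPKM. The part of the mesothelium in the level of Cldn15 was not tested.

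Cldn5 overlapped between heart and both brain tissues, whereas the endothelial markers did not. It had 2.88, 4.61 and 5.56 FPKM as lowest, median and highest in brain, 4.46, 4.83 and 7.22 FPKM in cerebellum, and 3.70, 7.01 and 4.84 FPKM in the female and 4.48 and 6.46 FPKM in the male hearts, which overlapped. The fitted log2 difference between heart and both brain tissues was 0.65 ± 0.19 (adjusted p 0.00394). On the FPKM scale the mean of cerebellum (5.34 FPKM) was slightly above that of heart (5.30 FPKM), whereas with TMM scaling the log2 difference of cerebellum against heart was -0.58 ± 0.22 (adjusted p 0.0243), so the order of these tissues turns with the scaling. The sum of 10 endothelial markers was 114 to 220 FPKM in heart and 18.7 to 32.5 FPKM in brain. Cldn5 was therefore 3.06 ± 0.762% of the endothelial sum in heart (SD, n = 5), with 3.98% as the highest library, and 19.7 ± 3.40% in brain and cerebellum (n = 12), with 15.4% as the lowest. These percentages did not overlap. The ratio was chosen after the values were seen and is given without a test. In colon the percentage was 7.86 to 16.6, in ovary 14.0 to 19.7 and in testis 16.9 to 22.9.

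**Figure D5:**
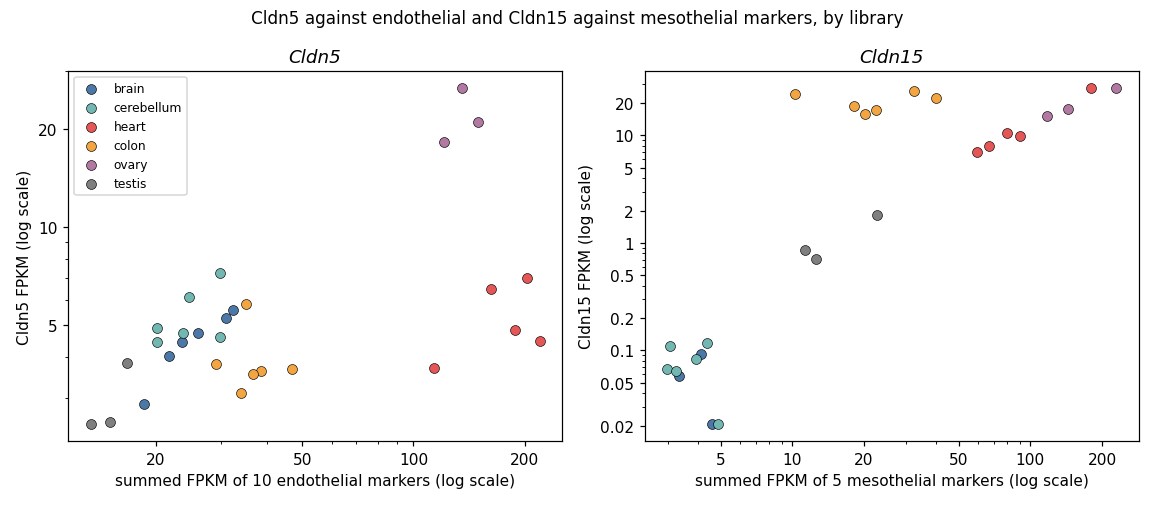
Cldn5 in FPKM against the summed FPKM of 10 endothelial markers (left) and Cldn15 against that of 5 mesothelial markers (right), on log axes, 1 point per library and coloured by tissue. Heart (114 to 220 FPKM of markers) and ovary (121 to 150 FPKM) lie to the right of the other tissues for Cldn5, with the ovary above the heart. For Cldn15, colon reaches levels like those of ovary at lower marker sums, and 3 brain libraries with no Cldn15 read are not drawn.

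Cldn2 and Cldn10 were lower in heart than in both brain tissues. Cldn2 had 8 reads over the 5 hearts, at most 4 in a library, and its log2 difference was -5.80 ± 0.76 (adjusted p 2.54e-07). Cldn10 had 0.909, 0.798 and 5.66 FPKM in the female and 0.322 and 1.33 FPKM in the male hearts, where the high value is that of replicate 3, and its log2 difference was -4.30 ± 0.31 (adjusted p 4.51e-12), or -4.82 (adjusted p 3.31e-15) without that library. Cldn1 (log2 -0.81 ± 0.38, adjusted p 0.0744), Cldn3 (0.65 ± 0.55, adjusted p 0.336) and Cldn23 (adjusted p 0.0537) were not called. Cldn1 was called in 3 of 34 alternatives (lowest adjusted p 0.0353) and Cldn23 in 8 of 33 (lowest adjusted p 0.0212). Cldn23 had no read in heart, and its log2 difference was -4.14 as fitted and -0.21 with the heart set to 3 counts. The difference of Cldn3 turned to -0.16 without female heart replicate 3.

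The ovary was compared with the testis to set the gonads of the sexes side by side. Of the 10 claudins 7 were called, 6 higher and 1 lower in ovary, where 64.3% of the genes tested were called, 26.5% higher and 37.8% lower. The median log2 difference was 1.70 over the 10 and -0.15 over all genes tested. Cldn5 had 18.2, 26.7 and 20.9 FPKM in the ovaries and 2.54, 2.50 and 3.84 FPKM in the testes, a log2 difference of 2.26 ± 0.30 (adjusted p 3.58e-07). The ovary was also above the next tissue in order for Cldn5, cerebellum, by 1.74 ± 0.24 (adjusted p 6.12e-07). Its endothelial sum was 121 to 150 FPKM, against 13.3 to 16.8 FPKM in testis.

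Cldn1 and Cldn15 were likewise higher in ovary. Cldn1 had 8.61, 4.85 and 5.55 FPKM in ovary and 0.609, 0.340 and 0.372 FPKM in testis without overlap, a log2 difference of 3.19 ± 0.57 (adjusted p 2.56e-05). It was the highest tissue mean of Cldn1, although the step from cerebellum to ovary was not called (log2 0.93 ± 0.43, adjusted p 0.0713). Cldn15 differed by 3.48 ± 0.36 (adjusted p 6.31e-09), Cldn10 by 2.67 ± 0.41 (adjusted p 3.07e-06) and Cldn4, with 1.17, 0.936 and 1.21 FPKM in ovary and 0.175, 0.0897 and 0.0902 FPKM in testis, by 2.57 ± 0.40 (adjusted p 1.28e-05). Cldn7 had 3.26, 1.64 and 1.28 FPKM in ovary and 0.947, 0.423 and 0.372 FPKM in testis. Its log2 difference of 1.15 ± 0.46 (adjusted p 0.0321) was lost with DESeq2 size factors (0.98, adjusted p 0.0661) and without ovary replicate 1 (0.75, adjusted p 0.188), testis replicate 2 (adjusted p 0.129) or testis replicate 3 (adjusted p 0.132). It was also lost with DESeq2 (0.99, adjusted p 0.116), and the call held in 29 of 34 alternatives.

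In the ovary several claudins were highest in the same library. Replicate 1 had the highest Cldn1, Cldn3, Cldn7, Cldn10 and Cldn15 of the 3 ovary libraries. It also had the highest sum of epithelial markers (478 FPKM, against 303 and 246 FPKM) and of mesothelial markers (229 FPKM). The same held for 4 markers listed for oviduct epithelium (22.6 FPKM, against 6.51 and 9.96 FPKM, although testis had 18.3 to 25.7 FPKM). Muc16 made up 10.6 of the ovary mean of 13.0 FPKM of that list, and Ovgp1 and Pax8 had 1.50 and 0.570 FPKM. Female heart replicate 3 had 21.8 FPKM on it, so the list does not mark oviduct alone. The sum of smooth muscle markers was lowest in ovary replicate 1 (1521 FPKM, against 3132 and 3055 FPKM), and so was Cldn5. The part of these cell layers in the ovary levels was not tested.

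Cldn3 was the exception in being higher in testis. It had 24.7, 23.9 and 22.3 FPKM in testis and 10.7, 7.53 and 4.62 FPKM in ovary, a log2 difference of -2.30 ± 0.41 (adjusted p 3.15e-05). Testis came second after colon, from which it differed by a log2 of 2.05 ± 0.37 (adjusted p 2.61e-05), and above heart, brain and cerebellum, among which no step was called. Claudin 3 is known from the barrier between Sertoli cells that shields developing germ cells. The sum of 6 Sertoli cell markers was 87.3 to 95.0 FPKM in testis and 117 to 150 FPKM in ovary. Its members went different ways: the mean of Wt1 was 73.8 FPKM in ovary and 13.7 FPKM in testis, that of Amhr2 was 50.9 and 52.7 FPKM, and that of Rhox5 was 0.185 and 14.6 FPKM. The sum of the 11 epithelial markers was 26.8 to 32.5 FPKM in testis. Cldn3 was thus 68.6 to 89.0% of the epithelial sum in testis and 1.70 to 3.15% in colon. That list holds genes of the gut lining such as Krt20, Muc2 and Slc26a3, with colon means of 559, 198 and 495 FPKM. The contrast of these percentages therefore depends on the choice of markers. Cldn4, Cldn7 and Cldn23, which accompany Cldn3 in colon, had at most 0.947 FPKM in testis.

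Cldn2, Cldn8 and Cldn23 were not called between the gonads. They had low counts in both: 21 to 24 reads of Cldn2, 14 to 27 of Cldn8 and 8 to 10 of Cldn23 over the 3 libraries of a gonad. Of the 27 reads of Cldn8 in testis 25 came from replicate 1, and the log2 difference of -1.21 ± 1.09 turned to 1.86 without it. The differences of Cldn2 (-0.11 ± 0.97) and Cldn23 (-0.56 ± 1.05) were smaller than their errors.

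No claudin was called between the sexes within a tissue, which does not show that the sexes were alike. In simulated counts, the test of sex in colon recovered 25% of 2-fold and 65% of 4-fold changes. In brain and in colon 9 claudins were lower and 1 higher in males, with median log2 differences of -0.95 and -0.22 (0 over all genes tested). These directions were not tested as a set. In colon, with at least 11742417 reads per library, the log2 differences of male against female ran from -0.92 (Cldn2, SE 0.62) to 0.17 (Cldn1), and none of the 10 was called by edgeR's quasi-likelihood test, where 0.324% of all genes were, nor by DESeq2. At an unadjusted p below 0.05 there were 0 of 10 in colon. In brain 0 of 10 were called by either tool (background 0.0368%), with 3 at an unadjusted p below 0.05, namely Cldn1, Cldn2 and Cldn15. Cldn2 had 2.63, 0.252 and 2.52 FPKM in the female brains and 0.902, 0.171 and 0.120 FPKM in the male ones, which overlapped, with a log2 difference of -2.14 ± 0.68 (adjusted p 0.837) that ran from -3.45 (without male brain replicate 1) to -1.74 (without male brain replicate 3) over the alternatives. The choroid plexus sums of these libraries were 1018, 25.5 and 1588 FPKM in females and 459, 45.6 and 47.9 FPKM in males, so that the 3 libraries highest in Cldn2 were also the 3 with the highest sums.

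The other comparisons of sex also held no call. Cldn4 had no read in cerebellum and Cldn8 and Cldn23 none in heart, so only 9 and 8 of the 10 could be called there. In cerebellum 0 of 10 were called by either tool (background 0.0301%), and 1, Cldn1 (log2 -1.22 ± 0.52, adjusted p 1), had an unadjusted p below 0.05. In heart 0 of 10 were called by either tool (background 0.0635%), and Cldn10 and Cldn15 had an unadjusted p below 0.05. Without female heart replicate 3 their log2 differences of male against female moved from -1.14 to -0.11 and from -0.79 to -0.54. A test of whether the difference of the sexes varied with tissue called 0 of 10 with either tool (background 0.0167%), and 0 had an unadjusted p below 0.05.

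The rest of the family and the partners of claudins in the junction give the setting. Of 13 other claudins 7 passed the filter on low counts. Cldn11, the claudin of myelin and of the barrier between Sertoli cells, was the most abundant, with 48.5 ± 14.0 FPKM in brain (n = 6), 58.6 ± 15.5 in cerebellum (n = 6) and 15.7 ± 1.64 in testis (n = 3). Its log2 difference of colon against brain, cerebellum and heart was -6.52 ± 0.35 (adjusted p 1.11e-14). Of the 7 others, 0 were higher and 3 lower in colon (Cldn11, Cldn12 and Cldn19), where 30.6% of all genes tested were higher and 31.6% lower, and the median log2 difference was -1.18 as fitted and -2.30 with groups at 0 set to 3 counts. In ovary against testis 1 was higher (Cldn12, 1.11 ± 0.19) and 3 were lower (Cldn11, Cldn13 and Cldn14), with a median of -1.64, against 26.5% higher and 37.8% lower over all genes. In brain against cerebellum 1 was higher (Cldn19) and 1 lower (Cldn9, -2.55 ± 0.63), with a median of -0.15, against 15.3% and 10.8% over all genes. In heart 0 were higher and 5 lower than in both brain tissues, with a median of -3.93 as fitted and -1.23 with groups at 0 set to 3 counts, and over all genes 24.9% were higher and 35.2% lower. Cldn18 and Cldn22 were counted 83 and 82 times in female heart replicate 3 and at most 6 times in another heart.

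Of the 22 partners, which are scaffolds, polarity proteins and other membrane proteins of the junction, all passed the filter. In colon 14 were higher and 6 lower (all genes 30.6% and 31.6%), with a median log2 difference of 0.67. Ildr1, a protein of the contacts where 3 cells meet, had the smallest adjusted p, with 77.4 ± 16.5 FPKM in colon (n = 6) and at most 0.266 FPKM as the mean of brain, cerebellum or heart (adjusted p 3.03e-21). F11r (log2 3.45 ± 0.10), Ocln, the gene of occludin (4.13 ± 0.14), and the polarity gene Crb3 (5.53 ± 0.21) followed. In ovary against testis 14 were higher and 0 lower (all genes 26.5% and 37.8%, median of the 22 1.50), with Mpdz (2.02 ± 0.13), Esam (3.72 ± 0.26), Magi1 (2.51 ± 0.18) and Ildr2 (5.38 ± 0.39) leading by adjusted p. In brain against cerebellum 3 were higher and 9 lower (all genes 15.3% and 10.8%, median of the 22 -0.39), among them Ocln (-1.76 ± 0.19), Patj (-1.47 ± 0.17) and Marveld2 (-2.51 ± 0.30). In heart 8 were higher and 10 lower (all genes 24.9% and 35.2%, median of the 22 -0.32), with Esam (3.01 ± 0.14), F11r (2.35 ± 0.12) and Cgnl1 (2.36 ± 0.13) higher and Magi1 (-2.14 ± 0.13) lower. Between sexes 0 of the 22 and 0 of the 7 were called in any tissue by edgeR, with 2 to 4 of the 22 and 0 or 1 of the 7 at an unadjusted p below 0.05.

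For each claudin, the 2 other protein-coding genes with the most similar pattern were sought among 18225 by Pearson's r of log2 CPM over the 29 libraries, which share tissues and depths, as a description. Cldn4 was closest to Zg16, a lectin gene of goblet cells, and Tspan8 (r 0.990 and 0.988), and Cldn7 to Zg16 and Noxa1 (0.985 and 0.981). Cldn23 was closest to Slc44a4 and Atoh1 (0.982 and 0.976), Cldn3 to Tes and Foxa3 (both 0.979), and Cldn8 to Fcgbp and Mep1b (0.944 and 0.936). Cldn15 was closest to B4galt1 and Cav1 (0.983 and 0.975) and Cldn10 to Nr2f1 and Dnajc6 (0.976 and 0.972). Cldn2 was closest to Slc12a2, the gene of a chloride cotransporter, and Chrna3 (0.946 and 0.930). Cldn5 was closest to Crtc3 and Glis2 (0.915 and 0.890) and Cldn1 to Gm42791 and Smo (both 0.742). The number of genes with r over 0.95 was 136 for Cldn23, 134 for Cldn7, 117 for Cldn4, 78 for Cldn10, 59 for Cldn15 and 26 for Cldn3, and it was 0 for Cldn1, Cldn2, Cldn5 and Cldn8.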

How the data were processed

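RNA of 6 tissues of adult C57BL/6J mice was measured in 29 strand-specific libraries freed of ribosomal RNA. The authors deposited raw read counts per gene or Iso-seq locus, made per the labels from uniquely mapped reads. The submitters' processing notes name FastQC 0.11.8, MultiQC 0.9, HISAT2 2.0.5, featureCounts 1.6.3 and build mm10. Whether featureCounts used strand is not given in the sources used here, so reads of Cldn3 and of the antisense gene Wbscr25 may not be separated. Samples were grouped by the labels, and 0 value columns were of no sample. The 10 claudins, the gene lists and the tests were chosen with earlier results of these data known.

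Counts were tested with edgeR 4.0.16 (R 4.3.3): TMM scaling, filterByExpr and the quasi-likelihood test, 1 fit of 29 libraries with 10 group means, Benjamini-Hochberg adjustment over 29911 genes and a threshold of 0.05. SE was the log2 difference divided by the square root of F. FPKM was computed from the deposited counts, the library total and the length of the union of exons. Limits for genes without reads used 3 counts over the tissue. The scripts were tested on simulated data. The text names the 10 claudins, the 2 genes most like each claudin with a highest mean of at least 1 FPKM, up to 4 genes per list and comparison with the smallest adjusted p (1 such gene is not reported here), and markers beside a claudin. Cldn18, Cldn22, Sftpc and further other claudins called were named after their values were seen. Alternatives were DESeq2 1.42.0, its size factors within edgeR, no filter, the replicate number as a block, only the groups compared, and each library left out in turn.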

Additional observations from a re-analysis of the deposited data

Results flagged for a closer look

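In 9 of 37 groups of claudin values the highest library lay far from the others of its tissue. Chance flags about 1 in 20 groups of normally distributed values, but groups near 0 reads and the 3 values of 1 library do not meet that condition, so the number is not compared with it. Female heart replicate 3, which held lung epithelial transcripts, accounted for 3 of them: Cldn3 at 1.05 FPKM against 0.0667 to 0.290 FPKM in the other hearts, Cldn10 at 5.66 FPKM against 0.322 to 1.33 FPKM, and Cldn15 at 27.8 FPKM against 6.99 to 10.6 FPKM. In colon, male replicate 3 had 2.41 FPKM of Cldn1 where the others had 0.658 to 1.18 FPKM. Female colon replicate 3 had 5.82 FPKM of Cldn5 where the others had 3.11 to 3.80 FPKM. In brain, female replicate 1 had 0.662 FPKM of Cldn3 where the others had 0.0665 to 0.269 FPKM. The other 3 rested on few reads: Cldn8 at 0.134 FPKM in female brain replicate 2 (9 reads), Cldn8 at 0.0165 FPKM in female cerebellum replicate 2 (1 read) and Cldn23 at 0.140 FPKM in male cerebellum replicate 3 (6 reads).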

How the results depend on the processing

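The counts of claudins called stayed within 1.5 times of their values in every comparison and alternative that was run. With 1 library left out at a time they ranged from 9 to 9 for colon, 6 to 7 for ovary against testis, 2 to 3 for brain against cerebellum, 3 to 6 for heart and 18 to 21 for neighbouring tissues, and were 0 for the sexes. The number of claudins highest in colon ranged from 5 to 7, with 5 without female colon replicate 1. Of the log2 differences of single claudins, 1514 kept their direction and call, 18 gained a call, 6 lost it and 14 changed sign. Cldn1 in colon turned to 0.0863 with DESeq2 size factors, 0.0931 with DESeq2 and 0.0498 with only the groups compared, and ranged from -0.50 to 0.0541 with a library left out. Cldn2 in ovary against testis turned to 0.0886 without a filter and ranged from -0.51 to 0.10. Leaving out a library gave ranges that crossed 0 for Cldn8 (-1.79 to 1.86) and Cldn23 (-1.46 to 0.0166) in ovary against testis, for Cldn3 in brain against cerebellum (-0.12 to 0.74, below 0 without female brain replicate 1) and for Cldn3 in heart (-0.16 to 0.89). Causes were not tested. Over 126 pairs of same-numbered libraries the correlation of deviations from the group means ran from -0.26 to 0.15. Of 29 libraries 6 correlated best with their own number. Libraries of different tissues from the same animal need not correlate in this way, so whether the replicate numbers pair the samples stays unknown. With the replicate number as a block the counts of calls were 9, 7, 2 and 4 for the tissue comparisons, 20 for neighbours and 0 for the sexes. Depth limits Cldn4, Cldn8 and Cldn23 outside colon, where most libraries held few or no reads and fitted differences depend on the prior count.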
